A study of Mus musculus with 12 samples.

Results

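The 9 genes Nkx2-1, Nkx2-2, Nkx2-3, Nkx2-5, Nkx2-9, Nkx3-2, Nkx6-1, Nkx6-2 and Nkx6-3 were taken by name out of 22367 protein-coding genes, and the length of sequence under H3K27me3 peaks was measured at each of them. The measure was taken in 2 windows, the promoter window (2500 bp on either side of the annotated transcription start site, TSS) and the gene body extended by 5000 bp at both ends. The study followed H3K27me3 by ChIP-seq in immortalized mouse embryonic fibroblasts (iMEFs) after deletion of Ezh2, and 10 peak lists from 6 conditions in 2 experiments were used. Experiment 1 compared 2 libraries of Ezh2 knockout iMEFs (labelled Ezh2 -/-) with 2 libraries of wild-type iMEFs (labelled Ezh2 WT/WT). Experiment 2 held 1 library of an Ezh1 rescue and 1 of an Ezh2 rescue, in which Flag-tagged Ezh1 or Ezh2 was expressed from a retrovirus before the endogenous Ezh2 was deleted, beside 2 knockout and 2 wild-type libraries. All of these cells carried a c-MYC retrovirus and a tamoxifen-inducible Cre. They came from 1 clone called C2, so no result speaks for other clones or for primary fibroblasts. The methods describe the parental cells as carrying 1 floxed and 1 deleted Ezh2 allele, whereas the labels call the undeleted cells wild type. The knockout removes Ezh2 only, and Ezh1 was not deleted. The experiments differed in antibody, sequencing platform and read length, so they were never pooled, and levels were not tested across them. The study calls its duplicates biological replicates, but the labels do not say whether they came from separate cultures, so p-values measure only the spread between these libraries.

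H3K27me3 is written by Polycomb repressive complex 2 (PRC2), in which Ezh2 or its close relative Ezh1 is the catalytic subunit. The mark covers the promoters of silent developmental regulators, often as broad domains over CpG-rich DNA. The Nkx genes encode homeodomain transcription factors of the NK class that set positional and organ identity in the embryo, and fibroblasts are not their usual site of expression. Nkx2-1 acts in thyroid, lung and ventral forebrain, Nkx2-2 and Nkx2-9 in the ventral neural tube, Nkx2-3 in spleen and gut, Nkx2-5 in the heart, Nkx3-2 in cartilage and the axial skeleton, Nkx6-1 in pancreatic beta cells and motor neuron progenitors, Nkx6-2 in the ventral neural tube and glia, and Nkx6-3 in the stomach.

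The peak lists gave only start and end positions (mm9), with no score and no read counts, so the depth behind each value is unknown and the values describe where peaks were called and how wide they were. In experiment 1 the lists covered 24.3 and 56.7 Mb in the knockout libraries, against 141 and 177 Mb in the wild-type libraries. In experiment 2 the Ezh1 rescue list covered 256 Mb, the Ezh2 rescue list 80.6 Mb, the knockout lists 0.0588 and 0.481 Mb, and the wild-type lists 14.9 and 11.3 Mb. The experiment 2 knockout lists held 29 and 382 peaks and the wild-type lists 18284 and 13417, so the wild-type lists of experiment 2 were short beside the 82566 and 82407 peaks of wild type in experiment 1. The shortest peak was 150 bp in each list of experiment 1 and 550 to 700 bp in the lists of experiment 2. Peak lengths and edges therefore differ in resolution between the experiments. Of 12 fibroblast genes such as Col1a1, Col3a1 and Pdgfra, 0 had a promoter peak in any wild-type library of either experiment. Vim, a mesenchymal intermediate filament gene, had 1698 and 1275 bp under peaks in the experiment 1 knockout libraries, against 0 bp in both wild-type libraries. A narrower peak in a bulk library can come from fewer marked cells or from less of the mark per cell, and these cannot be told apart. Knockout and Ezh1 rescue reads were also scaled down before peaks were called, which can itself narrow peaks. The part of this scaling in the knockout values below was not tested.

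The 250 bases upstream of the TSS are shown for 4 of the genes because they separate the kinds of promoter met below. Nkx2-3 kept peaks in the knockout, Nkx2-5 had none there, Nkx2-9 had a peak in the Ezh1 rescue alone, and at Nkx6-2 the wild-type peak stopped short of the TSS. The sequences are from RefSeq (GRCm38.p6 table, 8 of the 9 genes matched), are written on the strand of the gene, and were each found at 1 place in mm9. Capitals mark the dinucleotide CG, the methylatable CpG, which is its own reverse complement. Of the 32851 promoters in that table, 92.1% held at least 1 CG in these 250 bases and the median was 6.
Nkx2-3, chr19:43686565-43686814, + strand: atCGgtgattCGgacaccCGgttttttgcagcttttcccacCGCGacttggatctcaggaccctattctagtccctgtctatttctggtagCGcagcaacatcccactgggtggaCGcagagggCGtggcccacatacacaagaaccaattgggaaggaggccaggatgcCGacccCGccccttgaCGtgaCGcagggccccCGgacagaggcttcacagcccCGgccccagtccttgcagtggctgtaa
Nkx2-5, chr17:26978511-26978760, - strand: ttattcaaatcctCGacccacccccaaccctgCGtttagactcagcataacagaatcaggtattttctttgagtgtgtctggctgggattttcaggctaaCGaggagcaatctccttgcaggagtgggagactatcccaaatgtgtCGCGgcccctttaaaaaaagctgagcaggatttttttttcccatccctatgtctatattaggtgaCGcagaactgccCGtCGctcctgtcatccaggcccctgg
Nkx2-9, chr12:57714272-57714521, - strand: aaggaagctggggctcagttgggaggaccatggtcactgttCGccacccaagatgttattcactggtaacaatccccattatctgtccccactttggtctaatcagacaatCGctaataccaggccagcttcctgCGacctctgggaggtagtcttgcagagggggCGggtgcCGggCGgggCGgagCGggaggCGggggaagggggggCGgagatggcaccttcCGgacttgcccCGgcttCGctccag
Nkx6-2, chr7:146768697-146768946, - strand: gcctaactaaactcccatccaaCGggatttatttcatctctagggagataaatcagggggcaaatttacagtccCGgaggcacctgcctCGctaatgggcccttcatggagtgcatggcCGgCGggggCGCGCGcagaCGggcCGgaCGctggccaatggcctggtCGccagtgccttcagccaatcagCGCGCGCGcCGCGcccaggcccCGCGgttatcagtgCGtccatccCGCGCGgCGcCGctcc
The Nkx2-3 stretch held 14 CG and 60.0% G+C, and 29.4% of all promoters held as many CG or more. In experiment 1 it had 0 and 250 bp under knockout peaks, against 250 and 250 bp under wild-type peaks. The Nkx2-5 stretch held 8 CG and 49.2% G+C, with 0 and 0 bp under knockout peaks, against 250 and 250 bp under wild-type peaks. The Nkx2-9 stretch held 13 CG, lay under no peak of experiment 1, and had 71 bp under a peak in the Ezh1 rescue. The Nkx6-2 stretch held 26 CG, a number met or passed by 9.59% of promoters. It had 0 and 4 bp under knockout peaks, against 0 and 0 bp under wild-type peaks, and 46 bp under a peak in the Ezh1 rescue.

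Experiment 1 asked what remained of the mark when Ezh2 was deleted. Promoter peaks were present in both wild-type libraries at 8 of the 9 Nkx genes, all but Nkx2-9, beside 20.1% of all protein-coding genes. In the knockout, 4 of the 9 had no promoter peak in either library (Nkx2-2, Nkx2-5, Nkx2-9 and Nkx6-3), beside 89.4% of all genes, most of which were unmarked in wild type. Both knockout libraries lay below both wild-type libraries at 7 of the 9, all but Nkx2-9 and Nkx6-1, beside 19.6% of all genes. Only a gene with a promoter peak in both wild-type libraries can meet this. Among such genes it was met by 4389 of 4506 over all genes and by 7 of the 8 Nkx genes, so the loss was not particular to the Nkx genes. None of the 9 was higher in both knockout libraries, beside 3.76% of all genes. Over the 9 genes the median promoter coverage was 0% and 1.54% in the knockout libraries, against 45.0% and 63.4% in the wild-type libraries, while the median over all genes was 0% in each of these 4 libraries. With 2 libraries against 2, the exact permutation test (two-sided) cannot go below p = 0.33. That was its value at each of the 7 genes, with an adjusted p of 1 over all genes, so none of the differences below passed a threshold.

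**Figure D1:**
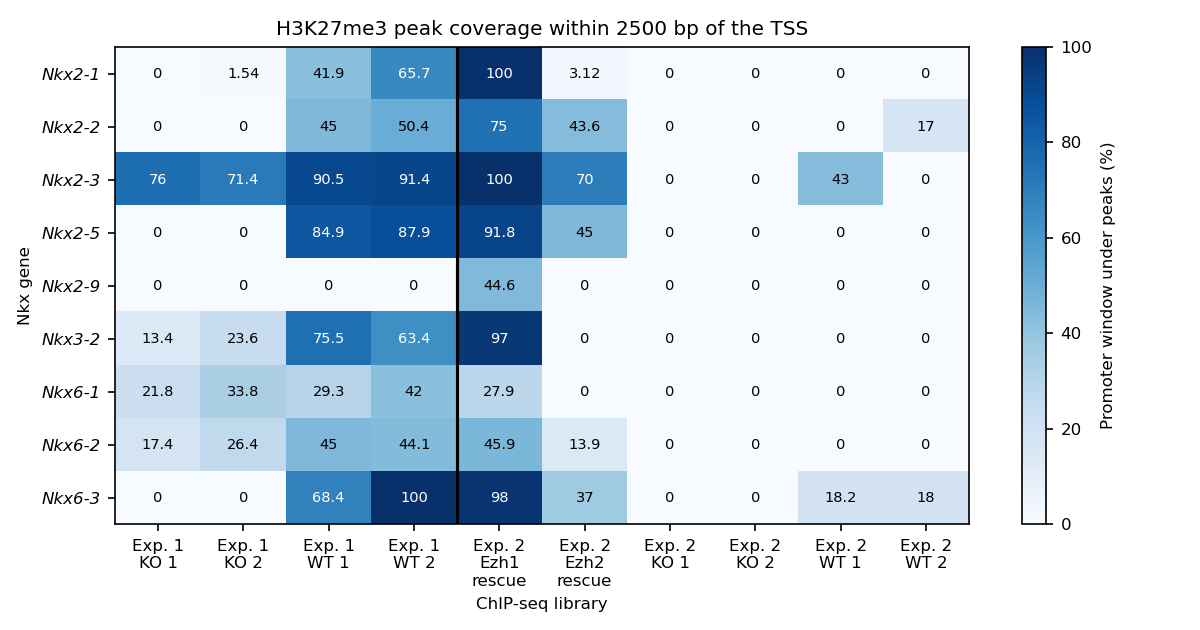
Share of the promoter window (percent, colour and printed value) under H3K27me3 peaks for each Nkx gene (rows) in each library (columns; KO, knockout; WT, wild type; the black line separates the experiments). Both knockout columns of experiment 1 are at or near 0 for Nkx2-1, Nkx2-2, Nkx2-5 and Nkx6-3 but reach 76.0 and 71.4% at Nkx2-3, and the Ezh1 rescue has a value above 0 in each of the 9 rows.

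Among the Nkx2 genes, the clearest losses were at Nkx2-5, Nkx2-1 and Nkx2-2. Nkx2-5 (ENSMUSG00000015579.4, chr17:26975609-26978510, - strand), a core cardiac regulator, had 0% and 0% of its promoter window under peaks in the knockout libraries, against 84.9% and 87.9% in the wild-type libraries. The difference of -86.4 percentage points was larger than at any other of the 9 genes, and the wild-type libraries averaged 86.4 ± 2.14% (SD, n = 2). The wild-type peaks ran over the start site. Merging the overlapping peaks of both wild-type libraries gave a region of 10500 bp (chr17:26976615-26987114), with 0 and 0 bp under knockout peaks, against 9536 and 10146 bp under wild-type peaks. The regions given for the other genes were merged in the same way.

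Nkx2-1 (ENSMUSG00000001496.7, chr12:57632922-57637895, - strand), the thyroid and lung regulator also called Ttf1, had 0% and 1.54% in the knockout libraries, against 41.9% and 65.7% in the wild-type libraries. The mean was 0.77 ± 1.09% in the knockout and 53.8 ± 16.9% in wild type (SD, n = 2 each). A merged region of 3440 bp over the upstream side (chr12:57637294-57640733) had 0 and 0 bp under knockout peaks, against 2432 and 3259 bp under wild-type peaks. A second one of 474 bp inside the gene (chr12:57634956-57635429) had 145 and 474 bp under knockout peaks, against 150 and 417 bp under wild-type peaks, so the small amount of mark still called within Nkx2-1 lay in the transcribed part.

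Nkx2-2 (ENSMUSG00000027434.9, chr2:147003282-147019979, - strand), which patterns the ventral neural tube and pancreatic islets, had 0% and 0% in the knockout libraries, against 45.0% and 50.4% in the wild-type libraries. Its annotated 5′ end belongs to non-coding transcripts, and the coding transcripts start 7841 bp further in. Around that coding start the window had 0% and 0% under knockout peaks, against 63.1% and 65.5% under wild-type peaks. The merged region of 7432 bp (chr2:147012314-147019745) between the starts had 0 and 0 bp under knockout peaks, against 7364 and 7432 bp under wild-type peaks. The lincRNA gene Nkx2-2as overlaps the Nkx2-2 window on the other strand, and peaks cannot be assigned to either of them.

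Nkx2-3 (ENSMUSG00000044220.11, chr19:43686815-43690381, + strand), needed for spleen and gut-associated lymphoid tissue, stood apart from the other Nkx2 genes. Its promoter window had 76.0% and 71.4% under peaks in the knockout libraries, against 90.5% and 91.4% in the wild-type libraries. The groups did not overlap, yet the knockout mean of 73.7 ± 3.28% was 81.1% of the wild-type mean of 90.9 ± 0.622% (SD, n = 2 each). The domain around it did shrink. The merged region of 35810 bp, which began at -33740 bp from the start (chr19:43653075-43688884), had 4130 and 4658 bp under knockout peaks, against 35042 and 35810 bp under wild-type peaks. Most of what was left lay around the start. In the first knockout library it was a peak of 2492 bp ending at -336 bp from the start and one of 1638 bp beginning 297 bp after it. In the second it was a peak of 3230 bp across the start, with separate peaks of 961 and 467 bp further upstream. The small gene Gm20467 overlaps this window on the other strand.

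Nkx2-9 (ENSMUSG00000058669.6, chr12:57712376-57714271, - strand), a gene of the ventral neural tube, had 0% in each of the 4 libraries of experiment 1. The nearest peak lay 30626 and 77163 bp away in the knockout libraries, against 73538 and 73719 bp in the wild-type libraries.

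Nkx3-2 (ENSMUSG00000049691.6, chr5:42152404-42155735, - strand), also called Bapx1, maintains chondrocyte identity in the axial skeleton. It had 13.4% and 23.6% of the promoter window under peaks in the knockout libraries, against 75.5% and 63.4% in the wild-type libraries. The means were 18.5 ± 7.23% in the knockout and 69.4 ± 8.54% in wild type (SD, n = 2 each), a difference of -51.0 percentage points. Its main merged region of 38007 bp (chr5:42116562-42154568) had 668 and 697 bp under knockout peaks, against 32381 and 37202 bp under wild-type peaks. That remaining peak lay at nearly the same place in both knockout libraries, from 1367 to 2034 bp downstream of the start in one and from 1413 to 2109 bp in the other.

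The Nkx6 genes did not share one pattern. Nkx6-3 (ENSMUSG00000063672.6, chr8:24263743-24269420, + strand), a regulator of gastric endocrine cells, had 0% and 0% in the knockout libraries, against 68.4% and 100% in the wild-type libraries. Nkx6-2 (ENSMUSG00000041309.10, chr7:146765276-146768696, - strand) had 17.4% and 26.4% in the knockout libraries, against 45.0% and 44.1% in the wild-type libraries. The knockout mean of 21.9 ± 6.36% was 49.2% of the wild-type mean of 44.5 ± 0.65% (SD, n = 2 each). Its wild-type peaks lay upstream, in a merged region of 6632 bp (chr7:146768948-146775579). It had 870 and 1315 bp under knockout peaks, at the end nearest the gene, against 6383 and 6586 bp under wild-type peaks.

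Nkx6-1 (ENSMUSG00000035187.8, chr5:102087158-102094245, - strand), a beta cell factor, was the gene with the smallest difference among the 8 marked in wild type. It had 21.8% and 33.8% in the knockout libraries, against 29.3% and 42.0% in the wild-type libraries, so the groups overlapped. The means were 27.8 ± 8.46% in the knockout and 35.6 ± 9.01% in wild type (SD, n = 2 each; exact permutation p = 0.67, two-sided). Within 1000 bp of the start the direction turned, with the knockout higher by 8.65 percentage points. Over the longer window of the gene body the groups separated, with 11.6% and 21.0% in the knockout libraries, against 41.5% and 56.6% in the wild-type libraries.

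**Figure D2:**
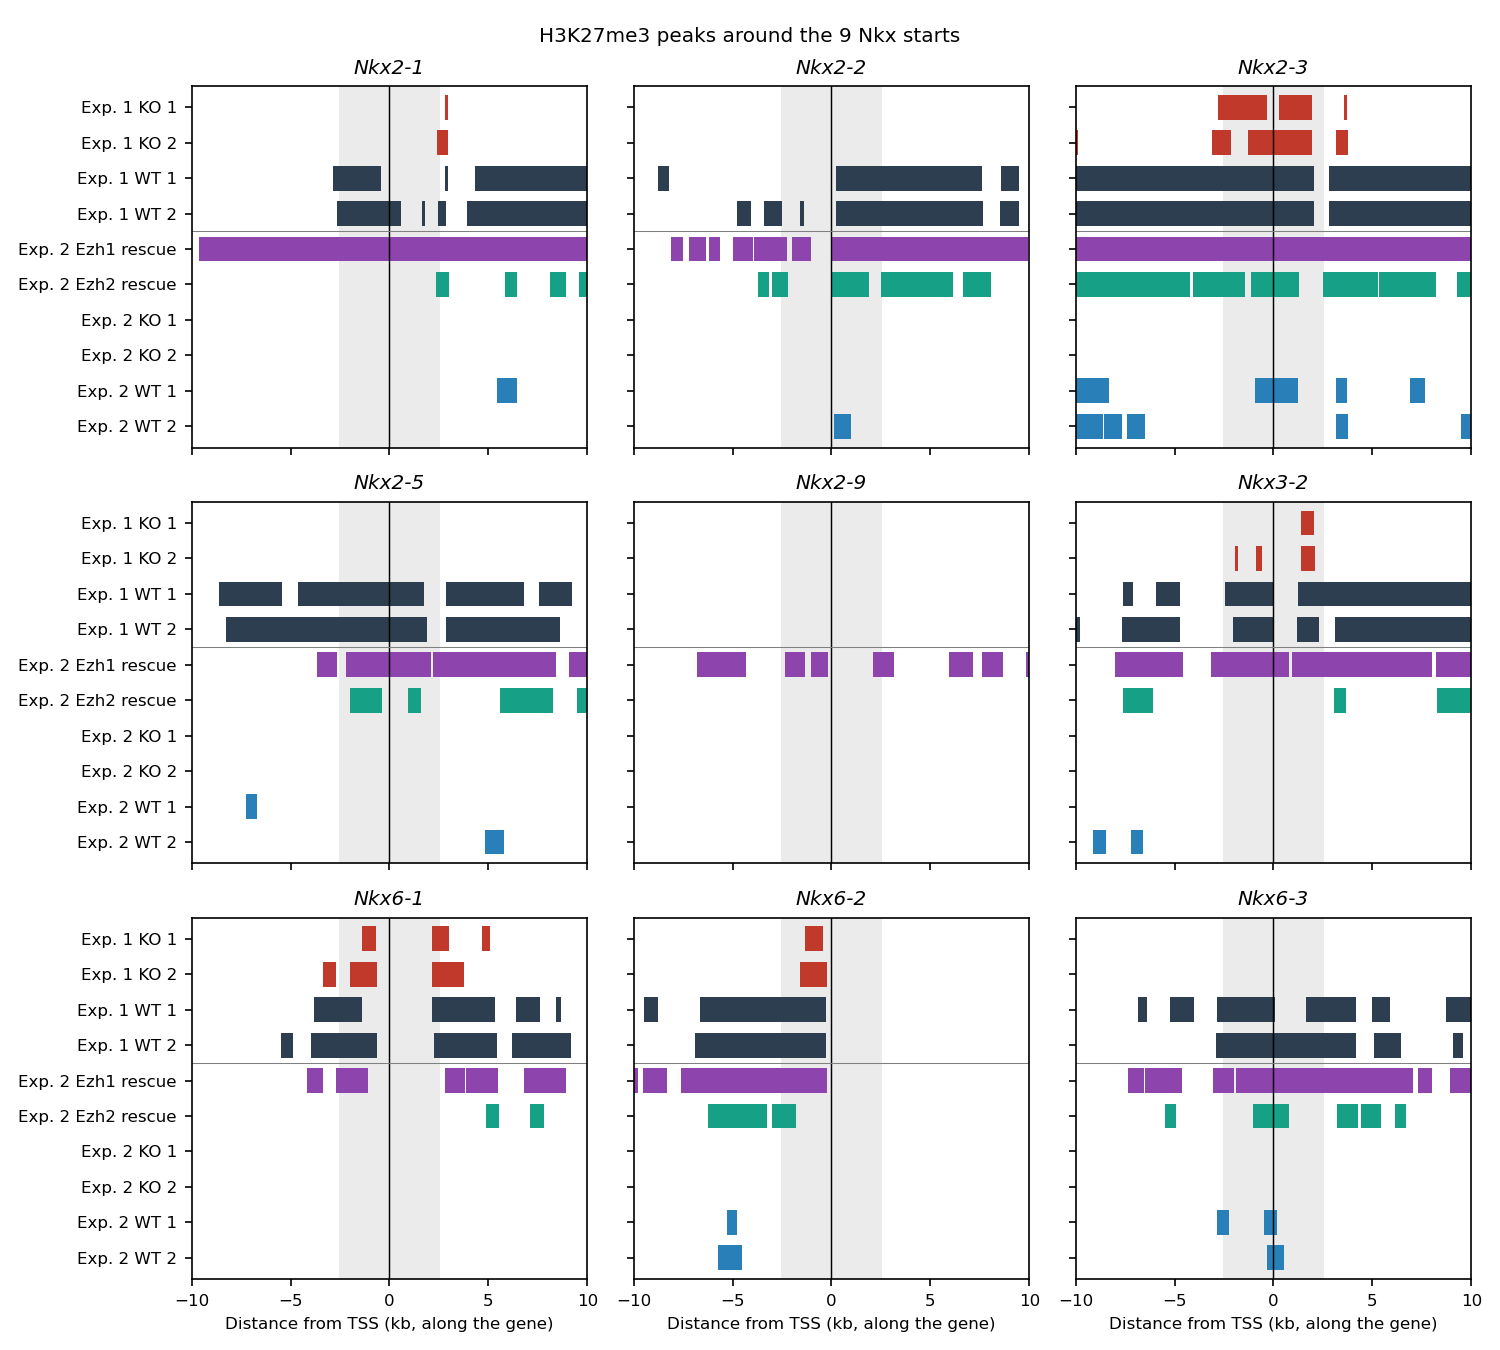
Peaks (coloured bars) in the 10000 bp before and after each Nkx start, by library (rows; KO, knockout; WT, wild type), on an axis of distance from the TSS in kb along the direction of the gene, with the promoter window in grey. The experiment 1 knockout peaks (top rows) at Nkx2-3, Nkx3-2, Nkx6-1 and Nkx6-2 are shorter than the wild-type bars and sit mostly inside them, and no bar crosses the start of Nkx6-1 or Nkx6-2 in any library.

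Peaks in both knockout libraries were thus found at 4 of the 9 promoters (Nkx2-3, Nkx3-2, Nkx6-1 and Nkx6-2), beside 4.47% of all genes. Of the genes with a promoter peak in both wild-type libraries, 4 of 8 Nkx genes and 3.35% of all genes (151 of 4506) also had one in both knockout libraries. Ordered by mean knockout coverage, these 4 came at rank 6 (Nkx2-3), 81 (Nkx6-1), 106 (Nkx6-2) and 120 (Nkx3-2) of the 4506 genes. At Nkx2-3 the coverage was met or passed by 0.133% of those genes. In the 9 promoter windows the knockout peaks lay almost wholly at wild-type places. Of 8775 bp under knockout peaks, 8706 bp (99.2%) lay under a wild-type peak, and they took up 31.1% of the wild-type length. Nkx2-3 held 4451 of the 8775 bp, and at Nkx2-1 45.5% of 77 bp lay under a wild-type peak. Over all genes, 151 of the 1000 with a promoter peak in both knockout libraries were marked in both wild-type libraries.

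The knockout libraries placed 21.2% and 21.7% of their covered sequence on chromosome 5, against 6.66% and 6.33% in the wild-type libraries, and Nkx3-2 and Nkx6-1 lie on that chromosome. Of the genes marked in both wild-type libraries, 21 of 272 on chromosome 5 (7.72%) and 130 of 4234 on the other chromosomes (3.07%) had peaks in both knockout libraries. Within 100000 bp of the Nkx6-1 start there were 6 and 40 peaks in the knockout libraries, against 5 and 6 in the wild-type libraries. Near the Nkx3-2 start there were 1 and 3 in the knockout libraries, against 14 and 10. The part of this excess in the knockout peaks at Nkx3-2 and Nkx6-1 was not tested. Nkx2-3 and Nkx6-2 lie on chromosomes 19 and 7, where 6 of 156 (3.85%) and 13 of 371 (3.50%) marked genes kept peaks.

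Over the gene body with 5000 bp on either side, 8 of the 9 Nkx genes, all but Nkx2-9, lay lower in both knockout libraries than in both wild-type libraries, beside 29.7% of all genes (exact permutation p = 0.33 at each, adjusted p = 0.853 over all genes). Genes without peaks in both wild-type libraries cannot meet this and are part of that share. Nkx2-3 shows how the longer window differs from the promoter. It had 31.5% and 35.3% in the knockout libraries, against 94.1% and 94.5% in the wild-type libraries. The knockout mean over this longer window, which also contains the promoter window, was 35.4% of the wild-type mean. These values do not separate the gene itself from its flanks. Nkx3-2 had 5.01% and 8.84% in the knockout libraries, against 74.1% and 65.1% in the wild-type libraries. Nkx2-5 had 0% and 0% in the knockout libraries, against 82.9% and 92.6% in the wild-type libraries. The other genes with loss lay between 0% and 9.84% in the knockout libraries, apart from Nkx6-1 given above, and between 35.0% and 76.5% in the wild-type libraries.

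Inside the promoter windows the wild-type peaks lay beside the most CpG-rich stretches and mostly not on them. The 9 windows were CpG-rich as a whole, with 35.8 to 65.6 CpG per kb at 8 genes and 16.6 at Nkx6-3, beside a median of 19.2 over all genes. At Nkx2-5, the part under a peak in either wild-type library held 29.6 CpG per kb and the part under none held 119. At Nkx6-2 these densities were 41.8 and 85.0, and at Nkx2-2 they were 23.4 and 48.4. The uncovered part was the richer one at 7 of the 7 Nkx genes where both parts were at least 250 bp long, a pattern also met at 3064 of 3864 genes overall (79.3%). Nkx6-3, the least CpG-rich window, was covered from end to end by the peaks of both wild-type libraries together. The start site base lay under a peak at 0 and 1 of the 9 genes in the knockout libraries, against 4 and 5 in the wild-type libraries, and at 6 in the Ezh1 rescue, against 2 in the Ezh2 rescue. The share over all genes was not computed for the start site base. These counts therefore describe the 9 genes only, and the lists differed in the length they covered. Mappability and GC effects of the chromatin or sequencing were not tested.

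**Figure D3:**
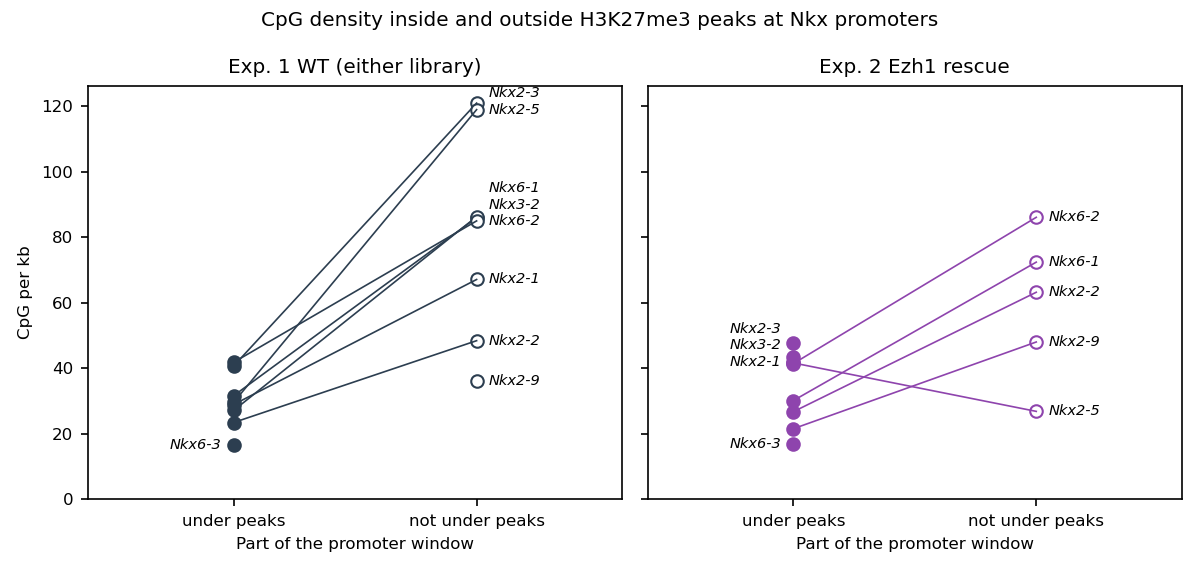
CpG dinucleotides per kb in the part of each promoter window under peaks (filled) and not under peaks (open), for the wild-type peaks of experiment 1 (left, either library) and the Ezh1 rescue (right), with a line joining the parts of 1 gene and parts shorter than 250 bp left out. The open points lie above the filled ones for each of the 7 joined genes on the left and for 4 of 5 on the right, where Nkx2-5 runs the other way. Over all genes with both parts of at least 250 bp, the same order held at 79.3% for the wild-type peaks. For the Ezh1 rescue it held at 2944 of 4708 genes (62.5%).

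Experiment 2 repeated the knockout comparison with another antibody and added the rescues. None of the 9 Nkx genes had a promoter peak in the knockout libraries, beside 99.6% of all genes, since those lists were almost empty. Only Nkx6-3 had one in both wild-type libraries, beside 3.11% of all genes, and only Nkx6-3 lay lower in both knockout libraries, beside 3.03% of all genes. Nkx6-3 had 0% and 0% in the knockout libraries, against 18.2% and 18.0% in the wild-type libraries, a mean of 18.1 ± 0.113% (SD, n = 2; exact permutation p = 0.33, adjusted p = 1 over all genes). Its wild-type peaks lay on the start site in both libraries. Nkx2-3 had 0% and 0% in the knockout libraries, against 43.0% and 0% in the wild-type libraries. Nkx2-2 had 0% and 0% in the knockout libraries, against 0% and 17.0% in the wild-type libraries. At the other 6 genes all 4 libraries were at 0%, which is no measure of a difference. None of the 9 was higher in the knockout, beside 0.0224% of all genes. Over the gene body, 4 of the 9 (Nkx2-2, Nkx2-3, Nkx6-2 and Nkx6-3) lay lower in both knockout libraries, beside 11.1% of all genes, a share that again includes genes without wild-type peaks. Of 4308 bp under wild-type peaks in the 9 promoter windows, 97.6% lay under the wild-type peaks of experiment 1.

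In the Ezh1 rescue, 9 of the 9 Nkx promoters had a peak, beside 28.2% of all genes, and in the Ezh2 rescue 6 of the 9, beside 18.8% of all genes. The genes without a peak in the Ezh2 rescue were Nkx2-9, Nkx3-2 and Nkx6-1. The length under peaks was greater in the Ezh1 rescue than in the Ezh2 rescue at each of the 9 genes, beside 26.9% of all genes. Only a gene with an Ezh1 rescue peak can meet this, and 6012 of the 6317 such genes did, so it was not particular to the Nkx genes. Each rescue had 1 library, so these differences have no replicate check and no test. The Ezh1 rescue list also covered more of the genome than the Ezh2 rescue list (256 and 80.6 Mb), and with 1 library each the enzyme and the library cannot be told apart. The methods scale down the reads of the Ezh1 rescue and not those of the Ezh2 rescue, and the lists give no read density, so a wider peak is not a stronger one.

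The gap between the rescues was widest at Nkx2-1 and Nkx3-2. Nkx2-1 had 100% of the promoter window under peaks in the Ezh1 rescue, against 3.12% in the Ezh2 rescue. Nkx3-2 had 97.0% in the Ezh1 rescue, against 0% in the Ezh2 rescue. Nkx6-3 had 98.0% in the Ezh1 rescue, against 37.0% in the Ezh2 rescue, and Nkx2-5 had 91.8% in the Ezh1 rescue, against 45.0% in the Ezh2 rescue. At these genes most of the window was free of peaks in the Ezh2 rescue, as it was in the wild-type libraries of experiment 2. Those wild-type libraries had 0% and 0% at Nkx2-1, Nkx3-2 and Nkx2-5, and 18.2% and 18.0% at Nkx6-3.

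Nkx2-3 came closest to full coverage with both enzymes, with 100% in the Ezh1 rescue, against 70.0% in the Ezh2 rescue. Nkx2-2 had 75.0% in the Ezh1 rescue, against 43.6% in the Ezh2 rescue. Nkx6-2 had 45.9% in the Ezh1 rescue, against 13.9% in the Ezh2 rescue, and Nkx6-1 had 27.9% in the Ezh1 rescue, against 0% in the Ezh2 rescue. Nkx6-1 and Nkx6-2 therefore had less than 50% coverage in every library of the series, as did Nkx2-9, with 44.6% in the Ezh1 rescue. Of the 10632 bp under Ezh2 rescue peaks in the 9 windows, 99.5% also lay under Ezh1 rescue peaks, and they made up 31.1% of the Ezh1 rescue length of 34017 bp. The Ezh1 rescue peaks covered 95.8% of the length under experiment 1 wild-type peaks, and 78.9% of their own length lay within it. For the Ezh2 rescue these shares were 35.6% and 93.9%. The wild-type peaks of experiment 2 covered 15.0% of the length under experiment 1 wild-type peaks.

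Nkx2-9 was the 1 Nkx gene whose promoter was marked in the Ezh1 rescue and in no other library, a pattern met by 3.89% of all genes. It had 44.6% in the Ezh1 rescue and 0% in the other 9 libraries. The Ezh1 rescue peaks there were short pieces, one of 850 bp ending 180 bp before the start and one of 1000 bp further upstream. Nkx2-9 lies between Nkx2-1 and Pax9, a paired-box gene of the axial skeleton and pharyngeal pouches, with 76376 bp from its start to that of Nkx2-1 and 78483 bp to that of Pax9. The stretch between Nkx2-1 and Nkx2-9 had 32.6% under peaks in the Ezh1 rescue, against 0.738% in the Ezh2 rescue. In experiment 1 it had 0% and 0% in the knockout libraries, against 3.27% and 3.57% in the wild-type libraries. The stretch between Nkx2-9 and Pax9 had 11.7% in the Ezh1 rescue, against 0% in the Ezh2 rescue. In experiment 1 it had 1.88% and 0.877% in the knockout libraries, against 0% and 0% in the wild-type libraries. Pax9 itself had 490 and 1083 bp of its promoter window under peaks in the knockout libraries, against 0 and 0 bp in the wild-type libraries, the opposite direction from Nkx2-1 on the same chromosome.

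**Figure D4:**
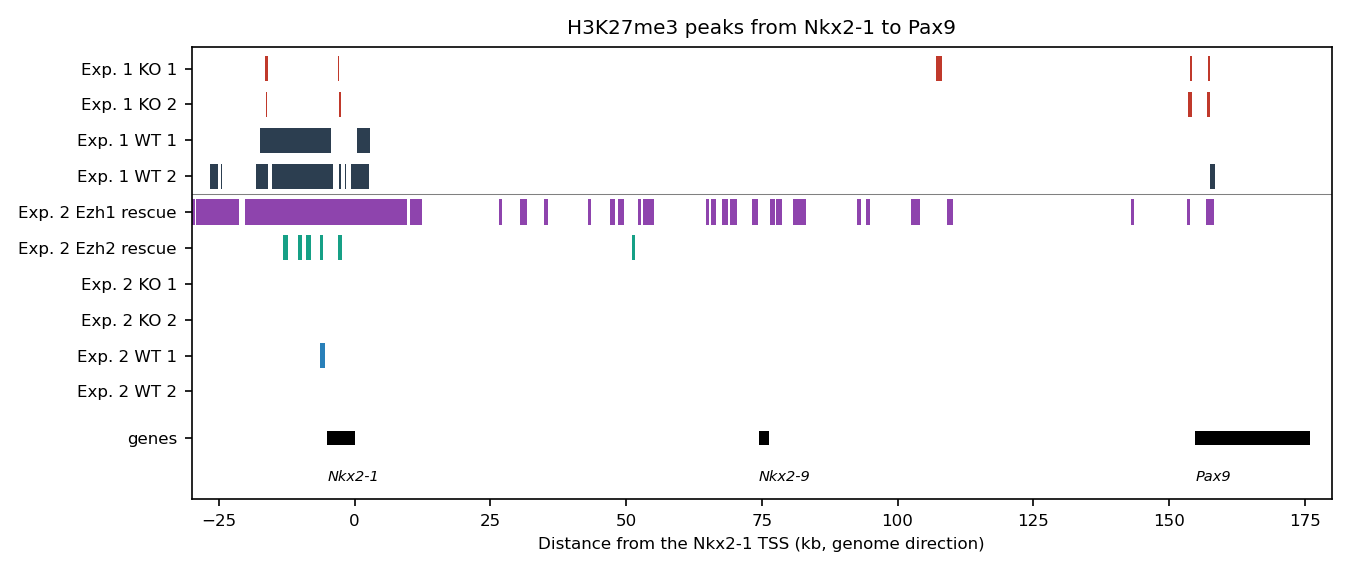
Peaks (coloured bars) by library (rows; KO, knockout; WT, wild type) along chromosome 12 from Nkx2-1 to Pax9, with the genes in black and distance from the Nkx2-1 TSS in kb on the horizontal axis. Ezh1 rescue peaks fill 32.6% of the stretch from Nkx2-1 to Nkx2-9. They are 1 long peak that reaches 9.605 kb from the Nkx2-1 TSS and shorter scattered ones. The wild-type libraries of experiment 1 have peaks in that stretch only beside Nkx2-1.

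The neighbour of Nkx2-2 is Nkx2-4, another NK gene, 108798 bp away from start to start. The stretch between these genes had 31.1% under peaks in the Ezh1 rescue, against 15.9% in the Ezh2 rescue. In experiment 1 it had 0% and 0% in the knockout libraries, against 38.5% and 51.4% in the wild-type libraries. In wild type the mark was thus not limited to the promoters there.

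The other NK genes and the partners of the Nkx factors were counted in the same way in experiment 1, from lists taken whole. All 5 other NK genes were marked in both wild-type libraries of experiment 1 and lower in both knockout libraries, and 0 of the 5 had a knockout peak. The most widely covered in wild type were Nkx1-2 (mean 93.2%), Nkx2-6 (93.1%), Nkx1-1 (68.2%) and Nkx2-4 (53.4%), each at 0% in the knockout. Of 17 NK-like homeobox genes (the Tlx, Lbx, Hmx, Barx, Barhl, Msx and Vax families and Bsx), 16 were marked in both wild-type libraries, 15 were lower in both knockout libraries, and 6 had peaks in both knockout libraries. Those with the widest wild-type coverage, Bsx (100%), Vax2 (93.4%), Barx2 (84.8%) and Msx2 (80.6%), were at 0% in the knockout libraries of experiment 1. The 6 with peaks in both knockout libraries were Lbx1, Hmx1, Barx1, Barhl2, Msx1 and Vax1. Their means ran from 4.14% (Vax1) to 52.6% (Hmx1) in the knockout, against 63.4% (Barhl2) to 79.2% (Vax1) in wild type.

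Of 15 partners in the ventral neural tube and pancreas, 10 were marked in wild type and lower in the knockout, and 1 of the 10 kept peaks in both knockout libraries. The widest in wild type included Pax6 (100%) and Pdx1 (92.5%), each at 0% in the knockout, and Neurog3, with 16.8% in the knockout and 90.1% in wild type. Of 8 heart partners, 5 were marked and 5 lower. Gata4 had 0% in the knockout and 84.2% in wild type, Hand2 had 17.3% in the knockout and 78.7% in wild type, and Myh6 and Tbx20 had 0% in the knockout, against 71.9% and 69.8% in wild type. Of 9 lung and thyroid partners, 4 were marked and lower. Among them, Sftpc, Foxe1 and Tshr had 0% to 5.03% in the knockout and 31.4% to 48.2% in wild type. Of 7 skeleton and stomach partners, 3 were marked and lower (Pax1, Col2a1 and Barx1, at 76.3% to 95.7% in wild type), and Pax9 was the 1 that lay higher in the knockout. In experiment 2 the second knockout library had promoter peaks at 1 of the 5 other NK genes (Nkx1-1), 3 of the 17 NK-like genes (Bsx, Barx2 and Hmx1) and 3 of the 15 neural tube and pancreas partners (Shh, Olig2 and Neurog3), and the first had none in these lists. Over all genes, 0.0402% had a promoter peak in the first of those knockout libraries and 0.376% in the second. Bsx had 0 and 2710 bp in those knockout libraries, against 1800 and 1000 bp in the wild-type libraries. Nkx1-1 had 0 and 1400 bp in the knockout libraries, against 75 and 0 bp in the wild-type libraries. In experiment 1 the median promoter coverage of the 9 Nkx genes was 0.77% in the knockout and 53.8% in wild type, and it was 0% in the knockout for each of these 6 lists. In the Ezh1 rescue the median was 91.8% over the 9 Nkx genes, 100% over the other NK genes and 100% over the NK-like genes. In the Ezh2 rescue these medians were 13.9%, 34.9% and 54.0%.

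The genes whose promoter values were most like the median of the 9 Nkx genes over the 10 libraries were Sec14l3, Tmem200a, Mak, Ap3b2 and Grm8, with a mean absolute difference of 68.1 to 85.6 bp per library. Among the 9 themselves, Nkx2-1 was nearest to that median (122 bp) and Nkx2-3 farthest from it (1630 bp).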

How the data were processed

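Chromatin of C2 iMEFs was digested with MNase and immunoprecipitated for H3K27me3 by the authors. Reads were aligned to mm9 with Bowtie 0.12.8 or Bowtie2 2.1.0, duplicates were removed with SAMtools, and reads were down-sampled to a common number. Knockout and Ezh1 rescue reads were then scaled down by the amount of immunoprecipitated DNA, and peaks were called in each library against input with MACS2 2.0.10. This scaling can narrow peaks where little DNA was recovered. The deposited lists hold start and end positions only (no other unit, no score), so planned score thresholds were replaced by peak width. The 2 input samples were not analysed here.

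From these, bp under peaks were summed per gene (GENCODE M1, mm9) in Python 3.11.15 (pandas 2.3.3, SciPy 1.17.1, NumPy 2.4.6), and the sums were checked on simulated data. At least 1 bp counted as marked. Knockout and wild type were compared within each experiment by an exact permutation test (two-sided, Benjamini-Hochberg over 22367 genes). All 9 Nkx genes are named. From each list up to 4 genes with the widest wild-type coverage are named (some are not reported here), with every list gene within 100000 bp of an Nkx gene. Fibroblast genes, and list genes beyond these, were named after their values were seen. The genes and lists were chosen with earlier results of these data known. Alternatives changed the window, TSS, peak joining, minimum width, minimum overlap, replicates and replicate block.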

Additional observations from a re-analysis of the deposited data

How the results depend on the processing

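The counts for experiment 1 and for the rescues stayed within 1.5 times their value under the alternatives run. All counts under the alternatives, also those for experiment 2 below, stand without the share over all genes in the same setting. They show how stable each count was and not how the Nkx genes stood beside other genes. In experiment 1, the Nkx genes lower in the knockout numbered 5 within 1000 bp of the TSS and 8 within 5000 bp, beside 7 within 2500 bp, and 7 to 8 when 1 library was left out. The 4 Nkx genes with no knockout peak became 6 when only peaks of at least 1000 bp were kept, which is a change by construction. The promoter difference at Nkx6-1 turned to 8.65 percentage points within 1000 bp of the TSS, where the knockout was higher; the cause was not tested.

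Experiment 2 was less stable. Nkx genes marked in both wild-type libraries numbered 3 within 5000 bp and 0 with peaks of at least 1000 bp, and 2 to 2 when either wild-type library was left out. Those lower in the knockout at the promoter numbered 3 and 0 under the same settings and 1 to 2 with 1 library left out (2 without either wild-type library), and those lower over the gene body numbered 2 with no flank and 0 with peaks of at least 1000 bp. The cause was not tested. Same-numbered libraries did not deviate together (correlation -0.002 in experiment 1 over 7252 genes and -0.011 in experiment 2 over 2243 genes). With the replicate number as a block, 8 promoters and 8 gene bodies were lower in experiment 1, and 1 promoter and 4 gene bodies in experiment 2.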
